A study of Mus musculus with 10 samples.

Results

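The 10 genes described here, Hspa5, Hsp90b1, Sdf2l1, Dnajb9, Herpud1, Xbp1, Atf4, Ddit3, Trib3 and Asns, belong to the unfolded protein response and the integrated stress response, and were taken by symbol from the 48476 genes of the series. They were followed in mouse embryonic fibroblasts (MEFs) of strain CBA/CaJ X C57BL/6J, prepared from E13.5 embryos and turned towards pluripotency by retroviral Oct4, Klf4 and Sox2, together called OKS. One arm also received FoxO6, a forkhead transcription factor (OKS + FoxO6), and the other DsRed, a red fluorescent protein that served as the control (OKS + DR), and both were kept in iCD1 medium. RNA was sequenced from whole cultures at days 0, 1, 3, 5 and 7, with 1 library for each arm and day, or 10 libraries in all. Both arms carry OKS, the virus came from PlatE packaging cells, and the methods describe the fibroblasts as carrying an Oct4-GFP reporter. The cultures were not sorted, so fewer cells of a type and less RNA per cell cannot be told apart.

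When misfolded proteins build up in the endoplasmic reticulum (ER), the sensors IRE1, PERK and ATF6 start the unfolded protein response. IRE1 splices the Xbp1 transcript, ATF6 is cut into a transcription factor, and together they raise chaperones and the machinery that sends misfolded proteins to the proteasome. PERK phosphorylates the translation factor eIF2, as do kinases that sense amino acid shortage, viral RNA or lack of heme, and this shared branch, the integrated stress response, favours translation of Atf4. ATF4 then raises genes of amino acid supply such as Asns and, under lasting stress, Ddit3 and Trib3. Fibroblasts secrete much collagen and hold abundant ER chaperones.

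Some promoters of ER stress genes carry sequence elements known to be bound by ATF6 or XBP1, and those of Hspa5, Hsp90b1 and Herpud1 are shown because they hold such an element, beside that of Xbp1, the gene whose level differed between the arms. All 10 genes were matched in the RefSeq promoter windows of GRCm38.p6, of 250 bases before to 50 bases after the start of the gene, and the letters below are the 250 bases before that RefSeq start, 5′ to 3′ on the strand of the gene. For Hspa5 and Hsp90b1 the RefSeq start lies downstream of the GENCODE gene start given with their levels, so part of these letters falls within the GENCODE gene. Capitals mark the ER stress response element (ERSE, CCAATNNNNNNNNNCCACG) in Hspa5 and Hsp90b1 and its relative ERSE-II (ATTGGNCCACG) in Herpud1, read on either strand. The regions are chr2:34771840-34772089 (plus strand) for Hspa5, chr10:86705445-86705694 (minus strand) for Hsp90b1, chr8:94386179-94386428 (plus strand) for Herpud1 and chr11:5520391-5520640 (plus strand) for Xbp1.
Hspa5: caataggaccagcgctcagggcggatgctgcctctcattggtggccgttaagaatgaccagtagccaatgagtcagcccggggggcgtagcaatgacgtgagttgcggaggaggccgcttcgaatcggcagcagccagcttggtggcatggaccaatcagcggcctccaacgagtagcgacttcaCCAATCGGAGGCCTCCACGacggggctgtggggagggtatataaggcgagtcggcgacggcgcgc
Hsp90b1: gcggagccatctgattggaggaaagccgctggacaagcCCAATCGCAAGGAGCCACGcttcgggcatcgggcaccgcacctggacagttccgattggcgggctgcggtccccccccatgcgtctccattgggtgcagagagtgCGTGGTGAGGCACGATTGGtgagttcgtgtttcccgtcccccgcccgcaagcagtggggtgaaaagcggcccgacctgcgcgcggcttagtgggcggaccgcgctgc
Herpud1: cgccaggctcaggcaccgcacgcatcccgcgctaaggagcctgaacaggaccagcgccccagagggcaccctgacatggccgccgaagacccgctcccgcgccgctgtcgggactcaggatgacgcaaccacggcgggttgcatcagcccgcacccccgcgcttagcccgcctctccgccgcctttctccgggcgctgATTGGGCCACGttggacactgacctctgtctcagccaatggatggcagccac
Xbp1: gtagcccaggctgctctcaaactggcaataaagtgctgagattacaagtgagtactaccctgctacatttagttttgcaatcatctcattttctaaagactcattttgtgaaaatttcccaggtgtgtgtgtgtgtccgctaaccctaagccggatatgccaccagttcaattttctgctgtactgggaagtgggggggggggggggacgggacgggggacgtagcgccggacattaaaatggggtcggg

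The ERSE was in 2 of the 10 promoters and in 0.119% of all 32851 promoter windows. In Hspa5 it ran from position -65 to -47 before the RefSeq start, inside the GENCODE gene, and in Hsp90b1 it was found at -212 to -194 and, on the opposite strand, at -107 to -89. The ERSE-II stood at -52 to -42 in Herpud1, 1 of the 10, and in 0.0365% of all windows. The unfolded protein response element TGACGTGG, in 0.676% of all windows, and TGATGNAAT, a strict form of the composite C/EBP-ATF element, in 0.965%, matched 0 of the 10 promoters. With its last base left free, a search added after seeing the data, TGATGNAA matched 3 of the 10 and 3.97% of all windows, at -23 to -16 in Asns, at -112 to -105 on the opposite strand in Herpud1, and past the start in Trib3. These are matches of letters in a short window, and they do not show binding.

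Expected counts summed to between 1208379 and 2225750 per library, with a median of 1601151, so that genes of low level rest on few reads. Foxo6 itself, the check of the arms, was between 0.61 and 2.29 TPM (a transcript level corrected for length and depth) in OKS + DR and between 762 and 1356 in OKS + FoxO6. It was already at 1017 TPM in OKS + FoxO6 at day 0, so day 0 is not a sample free of the factor. The 9 fibroblast markers, such as Col1a1 and Vim, summed to 2316 to 7681 TPM in OKS + DR and 2573 to 6678 TPM in OKS + FoxO6. The 6 epithelial markers summed to 655 TPM in OKS + DR and 149 TPM in OKS + FoxO6 at day 7, and the 6 pluripotent markers to 305 and 51 TPM. The 5 endothelial markers summed to 20.8 to 54.8 TPM in OKS + DR and 30.5 to 142 TPM in OKS + FoxO6, and the 8 macrophage markers to at most 59.9 TPM in any library. Between the arms, 2 of 2 endothelial markers tested were higher in OKS + FoxO6, 3 of 3 epithelial markers lower, and of 9 fibroblast markers 3 were higher and 1 lower, beside 6.93% higher and 7.13% lower over all genes tested. No marker was at 0 in every library, and the part of these cell types in the results below was not tested.

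The design allows questions on the difference between the arms over the days, the change from day 0, and a difference between the arms in their course. The first was answered by a shift shared by the 5 days, fitted to the counts of all genes by the quasi-likelihood method of edgeR with a term for each day, and a Benjamini-Hochberg adjusted p under 0.05 was the threshold. Of the 10 genes, 9 passed the filter on low counts, and Trib3, with at most 8 reads in a library, did not. Xbp1 was higher in OKS + FoxO6 and no other gene passed, which makes 1 of 9 higher and 0 of 9 lower, against 6.93% higher and 7.13% lower among the 10977 genes tested. The median shift of the 9 genes was 0.25 on the log2 scale and that of all genes tested was -0.02. The p-values of this fit are set against how much the difference between the arms varied from day to day. Libraries of one arm may stem from a single infected culture, so this is not the spread of independent infections.

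**Figure D1:**
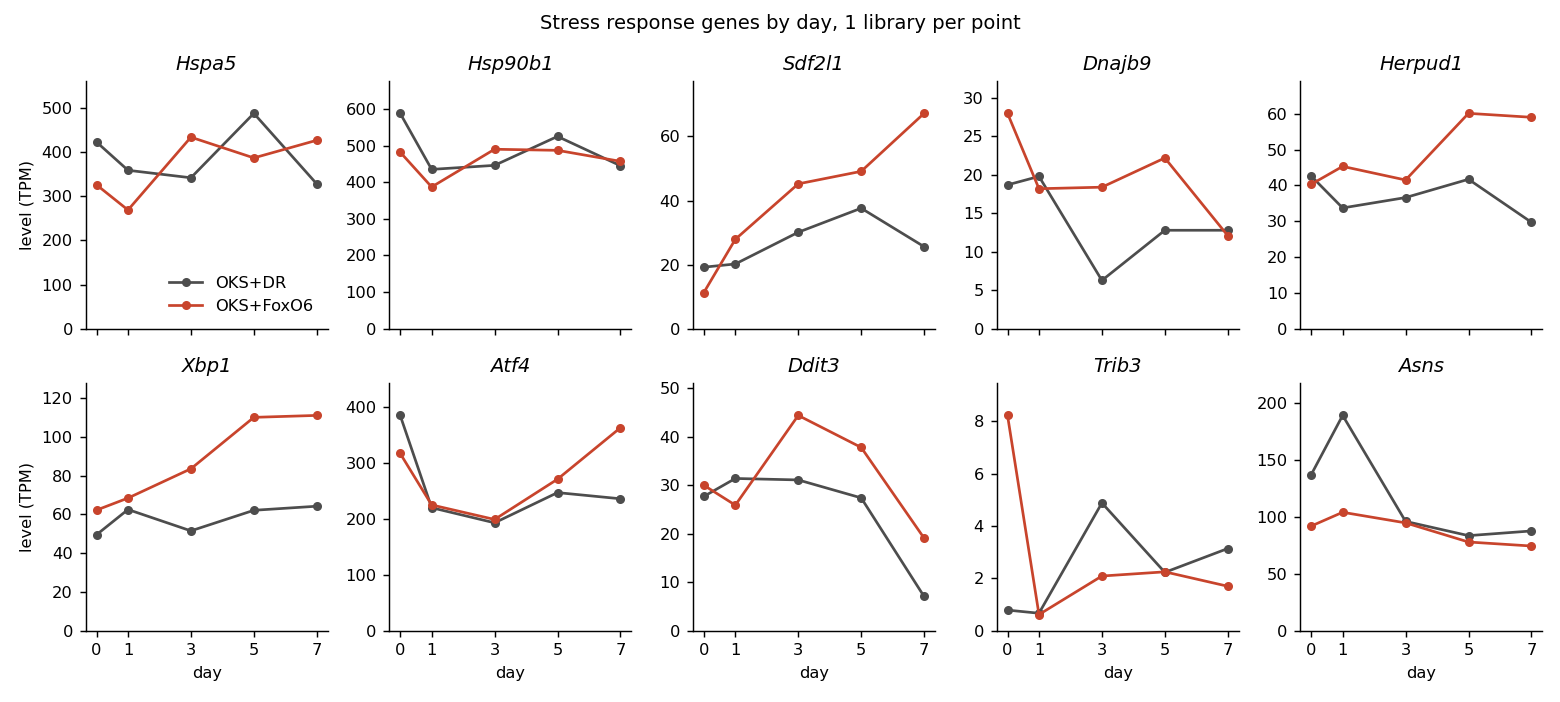
Level in TPM (y axis, from 0, a scale for each gene) against day (x axis) for the 10 genes, with 1 library per point, OKS + DR in grey and OKS + FoxO6 in red. Xbp1 was higher in OKS + FoxO6 on all 5 days and Asns lower on all 5, while the lines of Hspa5 and Hsp90b1 crossed.

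The ER chaperones come first. Hspa5 (ENSMUSG00000026864, chromosome 2 from 34771970 to 34777547, plus strand) encodes BiP, the main HSP70 of the ER, which also holds the sensors inactive. Its level at days 0, 1, 3, 5 and 7 was 423, 359, 342, 488 and 328 TPM in OKS + DR and 326, 269, 434, 387 and 427 TPM in OKS + FoxO6. OKS + FoxO6 was lower at days 0, 1 and 5 and higher at days 3 and 7, and the ranges of the arms overlapped. The shift was -0.05 (log2, SE 0.16, 95% interval -0.40 to 0.30, edgeR adjusted p = 0.884), an interval that spans folds of 0.758 to 1.23.

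Hsp90b1 (ENSMUSG00000020048, chromosome 10 from 86690209 to 86705509, minus strand) encodes GRP94, the HSP90 of the ER. Its values on the same days were 588, 435, 446, 525 and 445 TPM in OKS + DR and 482, 387, 490, 487 and 457 TPM in OKS + FoxO6. It had the highest level per length of the 10 genes in each of the 10 libraries, and the arms overlapped. The shift was -0.10 (SE 0.12, edgeR adjusted p = 0.662).

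Sdf2l1 (ENSMUSG00000022769, chromosome 16 from 17130138 to 17132383, minus strand) encodes an ER protein of chaperone complexes. It was measured from 13 to 63 reads, with levels of 19.2, 20.2, 30.1, 37.6 and 25.6 TPM in OKS + DR and 11.3, 27.9, 45.2, 49.1 and 67.2 TPM in OKS + FoxO6. OKS + FoxO6 held both the lowest library, at day 0, and the highest, at day 7, and was the higher arm on 4 of 5 days. The shift was 0.51 (SE 0.30, 95% interval -0.14 to 1.16, edgeR adjusted p = 0.299).

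Dnajb9 (ENSMUSG00000014905, chromosome 12 from 44205559 to 44210326, minus strand) encodes ERdj4, a co-chaperone of BiP and a target of XBP1. Its level was 18.7, 19.8, 6.28, 12.8 and 12.8 TPM in OKS + DR and 28, 18.2, 18.4, 22.2 and 12.1 TPM in OKS + FoxO6. The lowest library was OKS + DR at day 3 with 11 reads, and the arms overlapped. The shift was 0.47 (SE 0.25, 95% interval -0.07 to 1.02, edgeR adjusted p = 0.245).

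Herpud1 (ENSMUSG00000031770, chromosome 8 from 94386438 to 94395377, plus strand) encodes a membrane protein that assembles the machinery of ER-associated degradation. Its level was 42.6, 33.7, 36.6, 41.7 and 29.7 TPM in OKS + DR and 40.3, 45.3, 41.5, 60.1 and 59 TPM in OKS + FoxO6. OKS + FoxO6 was the higher arm on 4 of 5 days, with little between the arms at day 0. The shift was 0.40 (SE 0.21, 95% interval -0.06 to 0.86, edgeR adjusted p = 0.246).

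Xbp1 (ENSMUSG00000020484, chromosome 11 from 5520659 to 5525893, plus strand) encodes the transcription factor whose active form is made after IRE1 splices its RNA, a step that gene levels do not show. Its level was 49.5, 62.5, 51.5, 62.1 and 64.2 TPM in OKS + DR and 62.2, 68.4, 83.5, 110 and 111 TPM in OKS + FoxO6. OKS + FoxO6 was higher on 5 of 5 days, and the arms overlapped only through the day 0 library of OKS + FoxO6. The shift was 0.55 (SE 0.15, 95% interval 0.21 to 0.89, a fold of 1.46, edgeR adjusted p = 0.0382). It kept its direction in 10 alternatives but was past the threshold in 5 of them, with adjusted p between 0.00675 and 0.235, and it was not past it without day 3 (0.147), day 5 (0.146) or day 7 (0.078), with DESeq2 (0.0742) or without the day term (0.235).

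**Figure D2:**
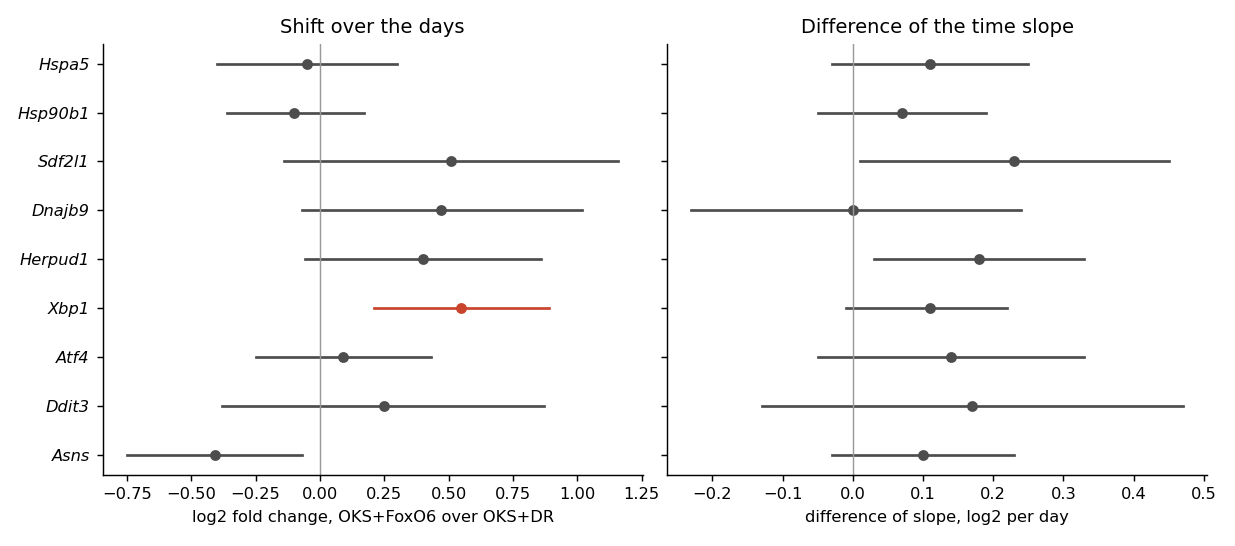
Estimates with 95% intervals (points and lines) for the 9 genes tested, with the shift between the arms in log2 on the left and the difference of the time slope in log2 per day on the right, red where the adjusted p is under 0.05. The interval of Xbp1, 0.21 to 0.89, is the one drawn in red on the left, and all 9 slope estimates are at or above 0.

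The genes of the integrated stress response followed no common direction. Atf4 (ENSMUSG00000042406, chromosome 15 from 80255184 to 80257541, plus strand) encodes its central transcription factor, which is controlled largely at translation. It stood at 385, 220, 193, 247 and 236 TPM in OKS + DR and at 317, 225, 199, 271 and 363 TPM in OKS + FoxO6. The arms were close at days 1, 3 and 5, and OKS + FoxO6 was lower at day 0 and higher at day 7. The shift was 0.09 (SE 0.15, 95% interval -0.25 to 0.43, edgeR adjusted p = 0.772).

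Ddit3 (ENSMUSG00000025408, chromosome 10 from 127290774 to 127296288, plus strand) encodes CHOP, a transcription factor of lasting ER stress linked to cell death. With 5 to 31 reads in a library, its level was 27.7, 31.4, 31.1, 27.4 and 7.07 TPM in OKS + DR and 30, 25.9, 44.4, 37.8 and 19.1 TPM in OKS + FoxO6. Day 7 was the lowest library of each arm. The shift was 0.25 (SE 0.28, 95% interval -0.38 to 0.87, edgeR adjusted p = 0.636).

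Trib3 (ENSMUSG00000032715, chromosome 2 from 152337422 to 152344032, minus strand) encodes a pseudokinase that acts downstream of ATF4 and CHOP. It had 1, 1, 7, 3 and 6 reads in OKS + DR and 8, 1, 4, 2 and 3 in OKS + FoxO6, or 0.62 to 8.22 TPM. At this depth a difference between the arms was not detectable, and in a fit without the filter the shift was -0.32 (SE 0.86, edgeR adjusted p = 0.908).

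Asns (ENSMUSG00000029752, chromosome 6 from 7675169 to 7693254, minus strand) encodes asparagine synthetase, a classical ATF4 target. Its level was 137, 189, 96, 83.5 and 87.6 TPM in OKS + DR and 91.9, 104, 94.7, 77.9 and 74.4 TPM in OKS + FoxO6. OKS + FoxO6 was lower on 5 of 5 days, by most at days 0 and 1, and the ranges overlapped. The shift of -0.41 (SE 0.15, 95% interval -0.75 to -0.07) did not pass the threshold (edgeR adjusted p = 0.103), and its p before adjustment was 0.0213. Asns and Xbp1 were the 2 genes of the 9 with an unadjusted p under 0.05, beside 28% of all genes.

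On single days, 1 library stands against 1, so that no test of a difference is possible, and the values below are those of the libraries. A difference of more than 2-fold in log2(TPM + 1), which understates the change of low genes, was found in 4 of 50 pairs of gene and day. Each was higher in OKS + FoxO6, while with a pseudocount of 0.1 Trib3 at day 3, from 7 and 4 reads, was also over 2-fold, lower at -1.19. Intervals of count ratios are exact 95% binomial intervals of reads scaled by library size, and they cover counting error only.

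At day 0 Trib3 differed by 2.36 on this scale, from 1 and 8 reads, with a count ratio of 4.25 (0.569 to 188), while 10.4% of 14837 genes (mean TPM of 1 or more) were higher by over 2-fold and 6.32% lower. At day 1 the number was 0 of 10, with 7.95% of all genes higher and 9.33% lower. Dnajb9 was the gene over 2-fold at day 3, with a difference of 1.41 from 11 and 43 reads and a count ratio of 2.88 (1.46 to 6.19), against 8.16% of all genes higher and 11.7% lower. At day 5 the number was again 0 of 10, against 10.2% higher and 11.4% lower.

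Day 7 held 2 of the 4 pairs, against 8.25% of all genes higher and 16.3% lower. Sdf2l1 differed by 1.36, from 26 and 63 reads, with a count ratio of 2.89 (1.80 to 4.76). Ddit3 differed by 1.32, from 5 and 12 reads, and its interval of 0.939 to 10.4 around a ratio of 2.86 includes 1. Herpud1 came close with 0.97, from 47 and 94 reads, and is over 2-fold at 1.22 in log2 CPM, a read count scaled to library size.

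The number of genes with a higher level in OKS + FoxO6 was 4, 4, 8, 7 and 7 of 10 in TPM at days 0, 1, 3, 5 and 7. In CPM it was 3, 4, 8, 6 and 8 of 10. The median difference of the 10 genes in log2(TPM + 1) was -0.18, -0.08, 0.26, 0.25 and 0.50, beside medians over all genes of 0.09, 0, 0, 0 and -0.14. In log2 CPM it was -0.36, -0.09, 0.25, 0.17 and 0.66. Hspa5, Hsp90b1 and Atf4, each with at least 234 reads in a library, shared the lower level in OKS + FoxO6 at day 0 and the higher level at day 7.

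The difference between the arms also moved with transcript length on the first and last day. Its Spearman correlation with effective length across the 14837 genes, which are not independent, was 0.20 at day 0 and -0.21 at day 7, and between 0.01 and 0.06 on the other days. The genes in the top quartile of length had a median difference of 0.28 at day 0 and -0.42 at day 7. In the bottom quartile the medians on these days were 0 and 0.03. The median effective length was 1914 bases for the 9 genes tested here and 2646 for all genes tested.

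**Figure D3:**
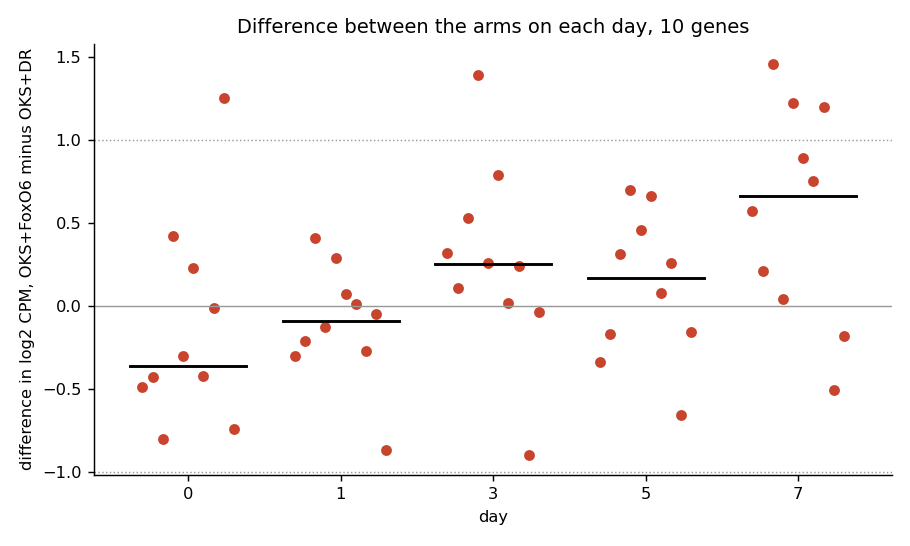
Difference between the arms in log2 CPM, OKS + FoxO6 minus OKS + DR (y axis), on each day (x axis), with 1 point per gene in the order Hspa5, Hsp90b1, Sdf2l1, Dnajb9, Herpud1, Xbp1, Atf4, Ddit3, Trib3 and Asns from left to right, the median as a black bar and 2-fold as dotted lines. The median runs from -0.36 at day 0 to 0.66 at day 7.

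Whether the courses of the arms differed was tested with a straight line over days for each arm. The difference of the slope was past the threshold in 0 of 9 genes, as in 0% of all 10977 genes, where the smallest edgeR adjusted p was 0.123, 954 genes (8.69%) had an unadjusted p under 0.05 and DESeq2 called 33. All 9 estimates were at or above 0, with a median of 0.11 log2 per day, and 52.1% of all genes had a positive estimate, with a median of 0.01. With an offset for the trend with transcript length, 8 of 9 were positive and the median was 0.10. The 9 genes share the same 10 libraries and are not independent of each other.

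Herpud1 had the smallest unadjusted p among them, with a slope difference of 0.18 per day (95% interval 0.03 to 0.33, edgeR adjusted p = 0.517). It moved by -0.07 log2 per day in OKS + DR and by 0.11 in OKS + FoxO6. Sdf2l1 had a larger estimate of 0.23 per day (0.01 to 0.45, edgeR adjusted p = 0.558), with slopes of 0.08 and 0.31. The estimate for Dnajb9 was 0 per day, with an interval of -0.23 to 0.24.

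The change with time shared by the arms was tested by the 4 day terms of the fit with both arms. It was past the threshold in 0 of 9 genes, against 19.6% of all genes, and 4 of the 9 had an unadjusted p under 0.05, beside 33% of all genes. Atf4 came closest, with an edgeR adjusted p of 0.0508, which fell under the threshold in 7 alternatives, among them DESeq2 (0.015) and the length offset (0.0302). In the others it did not, among them the fit without the arm term (0.166) and several with a library left out.

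At day 3 against day 0, Atf4 fell by 0.98 on the log2 scale (SE 0.24, edgeR adjusted p = 0.0201), and it was lower at day 3 than at day 0 in both arms. It was 1 of 9 lower and 0 of 9 were higher, against 6.88% of all genes lower and 8.90% higher. The call was lost without OKS + DR at day 0 (-0.64, adjusted p = 0.196), OKS + DR at day 3 (-1.04, 0.131) or OKS + FoxO6 at day 3 (-0.94, 0.138), and without the arm term (-0.98, 0.0762).

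At day 7 against day 0, Sdf2l1 rose by 1.66 (SE 0.49, 95% interval 0.58 to 2.74, edgeR adjusted p = 0.0331). It was 1 of 9 higher and 0 of 9 were lower, against 11.2% of all genes higher and 10.1% lower. The rise rested on OKS + FoxO6, since it was 0.76 without the day 0 library of that arm (adjusted p = 0.409) and 0.89 without its day 7 library (0.297), and without OKS + DR at day 7 it was 2.22 (0.00607). Without any single library of days 1, 3 or 5 the adjusted p was 0.0528 to 0.0561, with DESeq2 it was 0.0527, and the call held in 5 of 15 alternatives. Ddit3 was at -1.35 (SE 0.49, edgeR adjusted p = 0.0741) and Xbp1 at 0.70 (SE 0.24, edgeR adjusted p = 0.066), and neither passed. Each passed in 2 of 15 alternatives, Ddit3 with the length offset (-1.48, adjusted p = 0.0345) and without OKS + FoxO6 at day 7 (-2.20, 0.0334), and Xbp1 with the length offset (0.65, 0.0496) and without OKS + DR at day 7 (0.91, 0.0296).

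Over the 10 libraries, the levels of Hspa5 and Hsp90b1 had a Pearson correlation of 0.75 in log2(TPM + 1). Xbp1 correlated at 0.74 with Herpud1 and at 0.74 with Sdf2l1, and Herpud1 and Sdf2l1 at 0.60. Sdf2l1 and Asns correlated at -0.55. These are descriptions, since all points share arm, day and depth between genes.

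The genes most like Hspa5 among 9806 genes (mean TPM of 10 or more) were Traf2 (r = 0.947), Vkorc1l1 (0.903), Rhno1 (0.885), Smyd2 (0.876) and Zmat5 (0.87) over the 10 libraries. For Ddit3 they were Cc2d1b (0.942), Pak3 (0.922), Snap47 (0.915), Irf3 (0.911) and Plxdc2 (0.909). These are the highest of 9806 correlations over 10 libraries, so they are high by selection. The choice rests on the measure, since 2 of the 5 for Hspa5 and 0 of the 5 for Ddit3 were among the first 5 by Spearman correlation. By that measure the 5 named for Ddit3, a gene of 5 to 31 reads, were at 0.564 to 0.83.

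The rest of the pathways was read from 10 lists with 98 genes in the table, of which 92 were tested. Between the arms, 8 of the 92 were higher and 3 lower in OKS + FoxO6, or 12% in either direction, with a median shift of -0.02. Over all genes tested, 6.93% were higher and 7.13% lower. With the length offset 19 of the 92 passed (20.7%), beside 17.1% of all genes, so the calls in the lists stayed near the general share in both fits. The slope differed in 0 of 92.

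ER-associated degradation, the removal of misfolded proteins, had 3 of 11 genes higher, 0 lower and 8 that did not pass, with a median shift of 0.28 and 10 of 11 estimates above 0, beside 6.93% higher and 47.9% of estimates above 0 over all genes. With the length offset 5 of the 11 were higher, in a fit that called 17.1% of all genes in either direction. Os9, a lectin that delivers misfolded glycoproteins, was at 92.1, 116, 142, 125 and 90.7 TPM in OKS + DR and 135, 162, 224, 241 and 229 TPM in OKS + FoxO6. Its shift was 0.78 (SE 0.16, edgeR adjusted p = 0.00825). Ube2j1, a ubiquitin-conjugating enzyme of the ER membrane, shifted by 0.50 (SE 0.11, edgeR adjusted p = 0.0144). Both were higher on 5 of 5 days. The 12 genes of this list in the table summed to 566 to 687 TPM in OKS + DR and 753 to 925 TPM in OKS + FoxO6, ranges that do not overlap, and without Os9 to 475 to 545 and 588 to 702 TPM. Of the 10 lists, 1 other had sums that did not overlap, the cytosolic heat shock genes, at 5647 to 6486 TPM in OKS + DR and 5175 to 5613 TPM in OKS + FoxO6. Without Hsp90ab1 these sums were 3516 to 4112 and 3470 to 3764 TPM and overlapped.

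The 16 chaperones and folding enzymes of the ER, such as Calr and Pdia4, had 0 genes higher and 0 lower, with a median shift of 0, beside 6.93% of all genes higher and 7.13% lower. Their slope differences were above 0 in 15 of 16, none past the threshold, beside 52.1% of all genes. Of the 6 sensors and their proteases, 1 was higher and 5 did not pass. This was Atf6b, a relative of ATF6 (0.46, SE 0.13, edgeR adjusted p = 0.0392), which passed in 3 of 10 alternatives, with adjusted p between 0.0168 and 0.155, and in none of those that left out a day or used DESeq2 (0.0864).

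**Figure D4:**
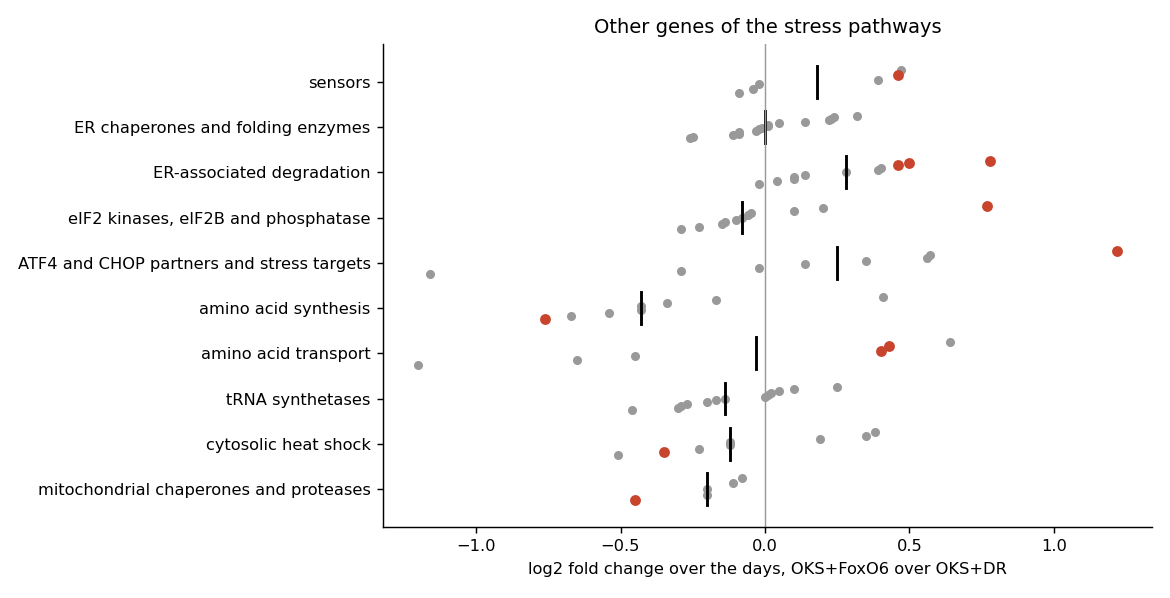
Shift between the arms over the days in log2 (x axis, OKS + FoxO6 over OKS + DR) for the tested genes of the 10 lists (y axis), with 1 point per gene, red where the adjusted p is under 0.05 and the list median as a black bar. ER-associated degradation has 3 red points to the right of 0 and a median of 0.28, and amino acid synthesis has 1 to the left and a median of -0.43.

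In the list of eIF2 kinases, eIF2B subunits and phosphatase subunits, 1 of 11 genes was higher, a share near the 6.93% of all genes. This was Ppp1r15a, which encodes GADD34, the subunit that directs dephosphorylation of eIF2 and so ends the response, with a shift of 0.77 (SE 0.15, edgeR adjusted p = 0.00621). Its counts scaled by library size were higher in OKS + FoxO6 on 5 of 5 days, but its TPM was higher on 3 of 5, since its estimated effective length ranged from 938 to 2272 bases among the libraries. Of 11 partners and targets of ATF4 and CHOP, 8 were tested, and 1 was higher, with 7 that did not pass, beside 6.93% of all genes. This was Nupr1, a small stress-induced chromatin protein (1.22, SE 0.22, edgeR adjusted p = 0.00464), at 53 to 194 TPM in OKS + DR and 133 to 307 TPM in OKS + FoxO6.

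Of the 8 genes of amino acid synthesis, 1 was lower and 7 did not pass, with a list median of -0.43 and 7 of 8 estimates below 0, beside 7.13% lower and 52.1% of estimates below 0 over all genes. With the length offset, a fit that called 17.1% of all genes in either direction, 4 of the 8 were lower. The gene that passed was Aldh18a1, which starts proline synthesis, at 61.3, 57, 62.5, 60.7 and 65.9 TPM in OKS + DR and 35.2, 47.3, 42.3, 50 and 26.1 TPM in OKS + FoxO6. The arms did not overlap, and the shift was -0.76 (SE 0.15, edgeR adjusted p = 0.00623).

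Of the 6 amino acid transporters, 2 were higher in OKS + FoxO6, beside 6.93% of all genes, Slc38a2 (0.43, SE 0.11, edgeR adjusted p = 0.0269) and Slc3a2, the heavy chain of several exchangers (0.40, SE 0.11, edgeR adjusted p = 0.0373). The other 4 did not pass, 3 of the 6 estimates were below 0, and the list median was -0.03. With the length offset 2 were higher and 1 lower, Slc7a1, beside 17.1% of all genes called in either direction. The list of tRNA synthetases, 13 genes that include the tRNA exporter Xpot, had 0 genes higher and 0 lower, with a median of -0.14. With the length offset 1 of the 13 was lower, Gars (-0.32, edgeR adjusted p = 0.0479). Outside the ER, with 7.13% of all genes lower, 1 of 8 cytosolic heat shock genes was lower, Hsp90ab1 (-0.35, SE 0.09, edgeR adjusted p = 0.0295), and 1 of 5 mitochondrial genes, the chaperonin Hspd1 (-0.45, SE 0.12, edgeR adjusted p = 0.0276). The shift of Aldh18a1 stayed past the threshold in all 10 alternatives, those of Os9, Ppp1r15a and Nupr1 in 9 of 10, and those of the other 6 named genes of the lists in 3 to 7 of 10. None of these alternatives corrected for the change in the effective length of Ppp1r15a between libraries, since the length offset takes 1 mean length per gene.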

How the data were processed

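RNA-seq of MEFs gave 10 libraries, 1 per arm and day, grouped by their labels. The methods name a TruSeq kit and the labels a VAHTS mRNA-seq V3 kit. The authors quantified reads with RSEM and bowtie2 on the GENCODE M13 transcriptome, and deposited expected counts per gene, not normalized, and TPM as computed by RSEM. The submitters' processing notes name mm10. The deposited FPKM was not used, RSEM's effective length per gene was used as deposited, and gene positions were read from GENCODE M21 (GRCm38). The series table held 48476 genes, and no more than 0.312% of any library's counts lay outside it. Libraries held 1208379 to 2225750 expected counts, and intervals of count ratios cover counting error only.

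Expected counts were rounded and fitted in R 4.3.3 with edgeR 4.0.16 (TMM, filterByExpr by arm, quasi-likelihood test) over 10977 genes, with day as a factor and arm, or with day as a number, arm and their interaction. Adjustment was by Benjamini-Hochberg over all genes tested. Single days were compared in log2(TPM + 1), a pseudocount of 1, with Python 3.11.15, pandas 2.3.3 and scipy 1.17.1, for genes whose mean TPM was 1 or more. Alternatives were DESeq2 1.42.0, its size factors, no filter, no day or arm term, a length offset from a smooth trend of each library on effective length, log2(day + 1), a pseudocount of 0.1, log2 CPM with a prior count of 2, a mean TPM of at least 5, Spearman correlation, and days or libraries left out.

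The 10 genes and the lists were chosen with earlier results of these data known. Named beside them were, in each list, up to 4 genes with the smallest adjusted p past the threshold, the genes most like Hspa5 and Ddit3, and Foxo6. One gene that met this rule is not reported here.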

Additional observations from a re-analysis of the deposited data

Results flagged for a closer look

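Herpud1 was singled out because its course from day 0 ran in opposite directions in the 2 arms. In OKS + DR all 4 later days were below day 0, by 0.33, 0.21, 0.03 and 0.50 in log2(TPM + 1), and in OKS + FoxO6 all 4 were above it, by 0.16, 0.04, 0.57 and 0.54. The same pattern was seen in 216 of 14837 genes (1.46%), and the opposite one in 368 (2.48%). For Herpud1 it hangs on the day 0 library of each arm, with 52 reads in OKS + DR and 79 in OKS + FoxO6. Steps as small as 0.03 and 0.04 were not tested against counting error. The difference of the slope was 0.18 log2 per day and did not pass the threshold (edgeR adjusted p = 0.517).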

How the results depend on the processing

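No named result past the threshold changed direction. Over all single-gene results and alternatives, 648 values kept their side of the threshold, 55 lost it, 14 gained it and 2 of the values without a test moved across 2-fold. The 55 all came from results past the threshold in the main fit, the only ones that could lose it. The 648 also include results that passed in neither fit, and single-day values. They do not measure how often the calls held. The count of genes with a shift between the arms was 1544, and 168 without the day term, with 663 to 1569 when a day was left out, lowest without day 5 (663) and day 3 (705). For the pathway lists it was 11, against 19 with the length offset, 17 without the filter and 1 without the day term, with 4 to 16 when a day was left out and 6, 4 and 5 without days 1, 3 and 5. The count with a change over time was 2152, against 615 without the arm term and 3816 without the filter, and that of the lists was 23, against 8 without the arm term, with 14 to 34 when a library was left out, lowest without OKS + DR at day 0 (14) or day 3 (15). Leaving out single libraries was chosen after seeing the data, except for the slope. At day 7 against day 0 it was 2332, and 1148 without the arm term. At day 3 against day 0 it was 1732, and 482 without the arm term, with 576 to 2421 when a library was left out, and 878, 576, 1154 and 930 without OKS + DR at day 0 or 3 or OKS + FoxO6 at day 0 or 3. The slope differed in 0 genes, in 33 with DESeq2, in 6 without the filter and in 0 to 1 when a library was left out. With a mean TPM of at least 5, the counts over 2-fold fell from 2476, 2564, 2949, 3197 and 3641 at days 0, 1, 3, 5 and 7 to 1359, 1337, 1591, 1762 and 2192, as fewer genes were counted. Of the 5 genes most like Hspa5, 2 were kept by Spearman correlation and 3 in CPM, and for Ddit3 0 and 2.

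The fit of the shift pairs the arms by day, and the values without the day term are those of the unpaired fit. Depth limits Trib3, with at most 8 reads, and Ddit3 at day 7, with 5 and 12.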
